A study of Mus musculus with 36 samples.

Results

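The floral fragrance was compared with no odor over 6 of the 36 libraries of the study, 3 from mice exposed to the fragrance and 3 from mice exposed to empty paper. Each library is RNA bound to ribosomes that carry phosphorylated ribosomal protein S6 (pS6), pulled down with an antibody from mouse olfactory epithelium and sequenced. All mice were wild-type C57BL/6J males aged 8 weeks. They had 4 h free of odor before meeting their condition for 90 min, with 10 µL of odorant on a filter paper in the odor groups. The members of the floral and no-odor groups were taken from the column names and labels of a set of 12 libraries, the FM set, which also holds 3 mint and 3 floral-mint libraries. Per the labels each set is a batch, and they describe the fragrances as commercial blends, and their ingredients are not given in the sources used here. Replicates are separate mice per the labels, and no group carries a transgene or drug.

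An olfactory sensory neuron expresses a single odorant receptor gene out of a very large family, so the receptor transcripts in a sample show which neurons were sampled. An odorant bound by the receptor acts through the G protein Golf, adenylyl cyclase 3 and a cyclic nucleotide-gated channel. Firing leads to phosphorylation of S6 in the neuron, and the antibody then enriches the RNA of neurons that responded. Receptors fall into class I, related to the receptors of fish, and class II, which makes up most of the mammalian family, and neighbouring receptor genes in the genome are often close relatives. In these bulk samples more cells of a type and more RNA recovered per cell cannot be told apart.

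Floral libraries held 26.05 to 26.2 M counts and no-odor libraries 23.3 to 26.4 M. The deposited estimated counts were rounded and scaled to counts per 1000000 counts (CPM) with the TMM library scaling of edgeR. Genes with too few counts were dropped, which left 19204 genes, and called genes are those with an adjusted p under 0.05 in the quasi-likelihood test of edgeR, with Benjamini-Hochberg adjustment over all of these genes. Of 1107 receptor genes in the files, 847 were tested and 260 had too few counts. The tissue showed its defining markers. Omp, a marker of mature sensory neurons, had 11030, 12650 and 11997 CPM in floral libraries, against 7500, 7402 and 6587 CPM in no-odor libraries. On the first principal component, which held 19.4% of the variance, the 3 no-odor libraries lay at -44.5 to -31.7. All floral, mint and floral-mint libraries lay at 2.7 to 27.4. Floral replicate 3 stood apart from the other 11 FM libraries on the second principal component, which held 15.3% of the variance.

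More receptors were called higher with floral than lower, and the share called higher was near that of all genes. Of 847 tested receptor genes, 82 were called higher with floral and 15 lower. These are 9.68% and 1.77% of the receptor genes, against 8.70% and 5.35% of all 19204 genes called higher and lower. Called receptors that were higher had a median log2 change of 2.16 (0.54 to 5.13), and 23 of them exceeded 3, an 8-fold change. The lower ones had a median of -1.07 (-2.56 to -0.44). Over all tested receptors the median was -0.07, and over all genes it was -0.02. In 95 of the 97 called receptors the 3 floral libraries did not overlap the 3 no-odor libraries. Calling favours such genes, so this adds no support of its own. The split of calls over all genes, 1671 higher and 1027 lower, depended on the scaling, with 875 and 2793 for library totals without TMM and 2535 and 571 when the median receptor was held level. For receptors these settings gave 77 higher and 39 lower, and 91 higher and 12 lower. The 2698 calls over all genes (14.0%) were 967 without no-odor replicate 1, 1186 without floral replicate 3 and 1672 without no-odor replicate 3.

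**Figure D1:**
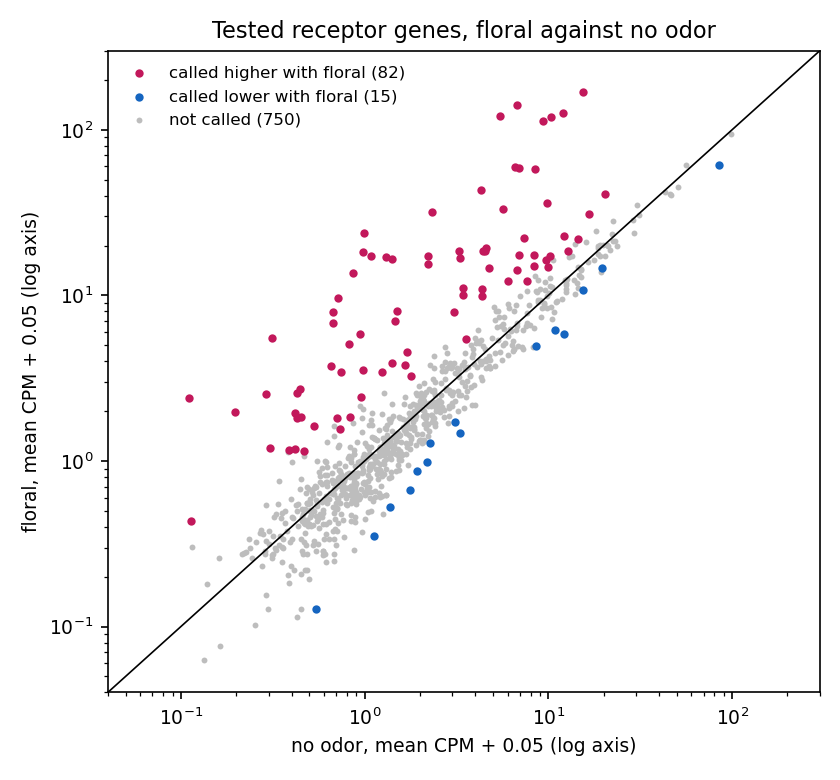
Mean CPM of each tested receptor gene with floral (vertical axis) and with no odor (horizontal axis), n = 3 libraries each, on log axes after adding 0.05. The 82 receptors called higher lie above the diagonal over the whole range of levels, and most of the 750 that were not called lie along it.

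Olfr48 (ENSMUSG00000075072) had the smallest p among receptors. It reached 129, 148 and 149 CPM in floral libraries, against 7.08, 7.59 and 5.34 CPM in no-odor libraries, a log2 change of 4.41 ± 0.13 (SE; adjusted p = 5.15e-11, edgeR quasi-likelihood test). Its floral libraries lay far above its no-odor libraries. Separate groups were a condition for naming it and the 14 receptors that follow. Olfr167, Olfr1260, Olfr169 and Olfr171 came next, with log2 changes of 3.18, 3.44, 3.39 and 2.79. Olfr1284, Olfr473, Olfr46, Olfr1180 and Olfr170 changed by 4.29, 3.84, 3.60, 4.67 and 4.50 log2 units, and Olfr914, Olfr477, Olfr1110, Olfr874 and Olfr434 by 4.05, 3.35, 3.54, 4.06 and 3.65.

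**Figure D2:**
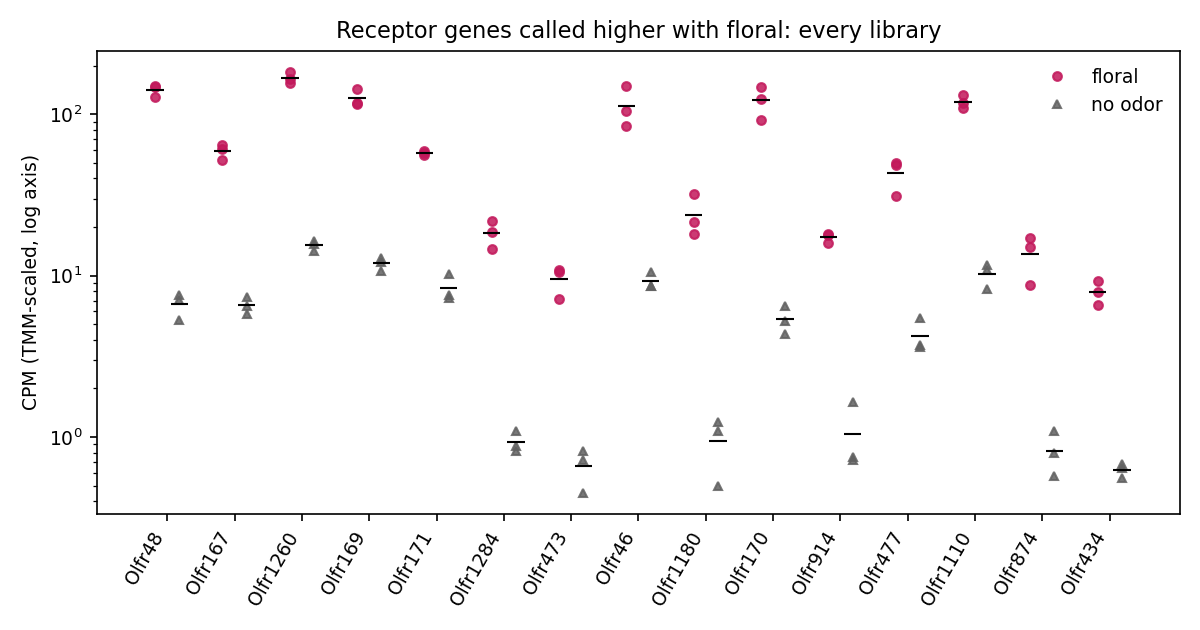
CPM on a log axis of the 15 receptor genes called higher with the smallest p, with a point for each library (floral left, no odor right) and a bar at the mean of 3. In each gene the lowest floral library lies above the highest no-odor library, which was a condition for choosing these genes.

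Some of these genes had low levels without odor, within the usual range of receptors. Receptors that were not called had a median of 1.27 CPM without odor, with quartiles of 0.66 and 2.88 CPM. Olfr1180 had 21.4, 32.0 and 18.1 CPM in floral libraries, against 0.498, 1.09 and 1.24 CPM in no-odor libraries. Olfr1284 showed the same pattern, with 21.7, 18.6 and 14.6 CPM against 0.819, 1.09 and 0.877 CPM in no-odor libraries. The largest log2 change, 5.13 ± 0.56 (adjusted p = 6.1e-05, edgeR), was that of Olfr113. It rested on 67, 50 and 61 counts in floral libraries, against 4, 1 and 0 counts in no-odor libraries, so its size is less certain than that of Olfr48. Others started high. Olfr1260 (ENSMUSG00000042894) had 183, 166 and 156 CPM in floral libraries, against 15.8, 16.4 and 14.3 CPM in no-odor libraries.

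The order of receptors by level also differed between the groups. Per kilobase of exon, Olfr170 stood at 84.8 CPM and Olfr169 at 50.5 CPM in the floral group, whereas Olfr727, the highest without odor per kilobase, had 36.1 CPM per kilobase with floral and 37.7 with no odor. Olfr727 did not pass the test (log2 change -0.06 ± 0.08, adjusted p = 0.65, edgeR). Nor did Olfr726, at 22.6 CPM per kilobase with floral and 26.2 with no odor (-0.21 ± 0.10, adjusted p = 0.15). Olfr536, another abundant receptor, fell to 66.3, 57.6 and 60.2 CPM in floral libraries, against 84.4, 93.6 and 75 CPM in no-odor libraries (-0.46 ± 0.10, adjusted p = 0.010).

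Receptor counts made up 0.429% ± 0.0333 of all counts with floral and 0.327% ± 0.0211 with no odor (SD, n = 3 each). The ratio was 1.31, and the 3 floral shares all lay above the 3 no-odor shares. The 2-sided exact permutation p was 0.1, the smallest that 3 against 3 allows. Summed over receptor genes, CPM came to 4432 ± 233 with floral and 3070 ± 237 with no odor, a sum in which long transcripts weigh more. The 82 receptors chosen for being higher held 1820 ± 156 CPM with floral and 340 ± 28.7 CPM with no odor, or 41.1% and 11.1% of the receptor total. All other receptors together held 2611 ± 98.8 CPM with floral and 2729 ± 209 CPM with no odor.

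Fewer receptors fell. Olfr1232 had 6.27, 5.44 and 5.66 CPM in floral libraries, against 10.6, 13.8 and 12.2 CPM in no-odor libraries, a log2 change of -1.07 ± 0.17 (adjusted p = 0.0013, edgeR). The groups did not overlap, which was a condition for naming the gene. Olfr506, Olfr523, Olfr1408, Olfr17, Olfr1500 and Olfr1020 changed by -1.81, -0.81, -1.20, -0.81, -1.46 and -1.48. Leaving out a single library kept 66 to 75 of the 82 higher calls and 4 to 11 of the 15 lower calls. The 4 were without floral replicate 3, and without no-odor replicate 1 there were 5 and without floral replicate 1 there were 6. Without no-odor replicates 2 and 3 there were 8 and 9. A single fit of all 36 libraries kept 59 and 1. In none of the 14 alternatives did any of the 97 change sign.

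Several families had many members among the calls. The family numbers used here (MOR) are those in the gene synonyms of the annotation. All 3 members of MOR273, which lie next to each other on chromosome 16, were called higher. In MOR232, 5 of 9 tested members were called higher, all of them on chromosome 2, and in MOR161 4 of 6, all on chromosome 9. MOR119 had 3 of 4 tested members called higher, Olfr212, Olfr213 and Olfr214, and MOR264 3 of 16. The large family MOR204 had 8 higher and 1 lower of 19 tested, and MOR256 6 higher of 43. Against these stands the background of 9.68% of tested receptors called higher. Class I receptors gave 1 higher (Olfr612) and 1 lower (Olfr582) of 84 tested, and class II receptors 80 higher and 14 lower of 750.

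The next sequences show how alike the called members of 3 families are, since reads from near-identical genes can be shared between them in the counts. Each line is a stretch of 90 bases of coding sequence, 5′ to 3′ on the coding strand, from the GENCODE vM21 transcripts (GRCm38), chosen as the gap-free stretch where the members differ most. Capitals mark bases that differ from the first line of the family.
MOR273, Olfr169: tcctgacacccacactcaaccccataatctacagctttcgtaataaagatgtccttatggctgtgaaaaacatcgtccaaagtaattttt
MOR273, Olfr170: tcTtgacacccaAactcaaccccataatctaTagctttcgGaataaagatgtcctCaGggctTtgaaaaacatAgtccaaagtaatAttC
MOR273, Olfr171: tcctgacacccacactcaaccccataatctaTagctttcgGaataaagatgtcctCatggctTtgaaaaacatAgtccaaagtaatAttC
MOR232, Olfr48: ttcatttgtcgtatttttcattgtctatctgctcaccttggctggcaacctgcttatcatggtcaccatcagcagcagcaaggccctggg
MOR232, Olfr1260: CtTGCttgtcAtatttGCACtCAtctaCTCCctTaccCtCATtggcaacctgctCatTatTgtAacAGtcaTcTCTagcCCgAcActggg
MOR232, Olfr1255: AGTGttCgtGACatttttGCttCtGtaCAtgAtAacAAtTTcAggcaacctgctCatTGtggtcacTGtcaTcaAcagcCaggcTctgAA
MOR232, Olfr1257: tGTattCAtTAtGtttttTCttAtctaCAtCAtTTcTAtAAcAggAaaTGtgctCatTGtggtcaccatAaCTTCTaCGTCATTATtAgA
MOR232, Olfr1259: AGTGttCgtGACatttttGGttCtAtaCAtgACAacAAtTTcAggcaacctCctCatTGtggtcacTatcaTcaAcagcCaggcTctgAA
MOR161, Olfr874: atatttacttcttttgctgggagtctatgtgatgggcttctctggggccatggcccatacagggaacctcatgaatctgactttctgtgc
MOR161, Olfr876: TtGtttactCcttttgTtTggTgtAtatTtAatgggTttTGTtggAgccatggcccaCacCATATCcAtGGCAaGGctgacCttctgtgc
MOR161, Olfr145: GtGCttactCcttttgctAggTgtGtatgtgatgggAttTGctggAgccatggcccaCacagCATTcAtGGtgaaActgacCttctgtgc
MOR161, Olfr922: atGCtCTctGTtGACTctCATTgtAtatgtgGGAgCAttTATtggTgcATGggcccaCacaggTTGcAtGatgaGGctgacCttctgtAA

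Over the whole coding sequence the MOR273 members were 96.2% to 97.5% identical in aligned bases, so even in its most variable stretch Olfr171 differs from Olfr169 at 7 of 90 bases. The counts of these 3 genes are therefore uncertain as separate values. Olfr1255 and Olfr1259 were 96.1% identical, whereas the other pairs among the 5 called members of MOR232 lay between 68.7% and 73.1%. Olfr874 and Olfr876 were 88.8% identical. Among the 82 receptors called higher, 25 had another receptor with at least 95% identity over at least 200 transcript bases, as did 3 of the 15 called lower and 252 of the 847 tested.

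Near-identical members had log2 changes of different size. Olfr170 (ENSMUSG00000062245) had 125, 91.9 and 148 CPM in floral libraries, against 4.38, 5.26 and 6.50 CPM in no-odor libraries, a log2 change of 4.50 ± 0.28. Its relative Olfr171 had 56.0, 57.6 and 59.4 CPM with floral, against 7.23, 7.59 and 10.3 CPM with no odor, a log2 change of 2.79 ± 0.13. The nearly identical pair of MOR232 also differed. Olfr1255 changed by 3.00 ± 0.23, at 18.9, 19.5 and 13.6 CPM with floral and 2.56, 1.80 and 2.11 CPM with no odor, and Olfr1259 by 1.03 ± 0.18, at 13.5, 13.6 and 9.47 CPM with floral and 6.91, 5.22 and 5.70 CPM with no odor. Members that were not called in MOR232 included Olfr1349, at 20.1 CPM with floral and 19.7 CPM with no odor on average. These differences between genes were not tested.

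In the order of receptor genes along each chromosome, 32 of the 82 receptors called higher formed 12 runs of at least 2 neighbours. How many runs 82 receptors placed at random would form was not computed. The longest run, on chromosome 16, held Olfr167, Olfr168, Olfr169, Olfr170 and Olfr171. It was not uniform: Olfr168, in its middle, had 19.8, 17.6 and 18 CPM in floral libraries, against 12.1, 15.3 and 10.6 CPM in no-odor libraries, a log2 change of 0.54 ± 0.14 (adjusted p = 0.023, edgeR). On chromosome 2 a run held Olfr1255, Olfr1256, Olfr48 and Olfr1257. By chromosome the shares called higher stand against 9.68% of all tested receptors. They were highest on chromosome 6 (7 of 25 tested, 28.0%), chromosome 17 (10 of 46, 21.7%) and chromosome 16 (7 of 34, 20.6%). On chromosome 2, which has the most receptors, 20 of 213 were called higher (9.39%), near that background. On chromosome 10 there was 1 of 52 (1.92%).

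Which of these receptors separated the floral fragrance from the mint one was tested directly in the same fit. Of 847 receptor genes 60 were called (7.08%), 23 higher (2.72%) and 37 lower (4.37%) with floral than with mint. Over all 19204 genes 68 were called (0.354%), and 60 of these 68 were receptors. Mint and floral share the no-odor libraries, and the comparison between them does not use those libraries except to estimate the spread.

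Olfr167 (ENSMUSG00000045341) had 64.8, 61.1 and 52.1 CPM with floral, against 6.61, 6.35 and 7.19 CPM with mint, a log2 difference of 3.15 ± 0.12 (adjusted p = 7.02e-10, edgeR). The mint libraries lay within the range of the no-odor libraries, which had 5.77, 6.50 and 7.42 CPM. Olfr46 showed the same order, with 149, 105 and 84.1 CPM with floral and 8.91, 8.84 and 8.20 CPM with mint, and a difference of 3.70 ± 0.22. Olfr874 (ENSMUSG00000063350) had 17.2, 15 and 8.78 CPM with floral, against 0.623, 0.351 and 0.786 CPM with mint, a difference of 4.58 ± 0.31. Olfr876, its MOR161 relative, differed by 4.32 ± 0.37, and Olfr145 by 1.80 ± 0.32 (adjusted p = 0.017). Olfr922, the other called member, missed the threshold at 2.58 ± 0.59 (adjusted p = 0.12). Olfr113 and its neighbour Olfr114 differed by 5.12 ± 0.59 and 4.32 ± 0.73.

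**Figure D3:**
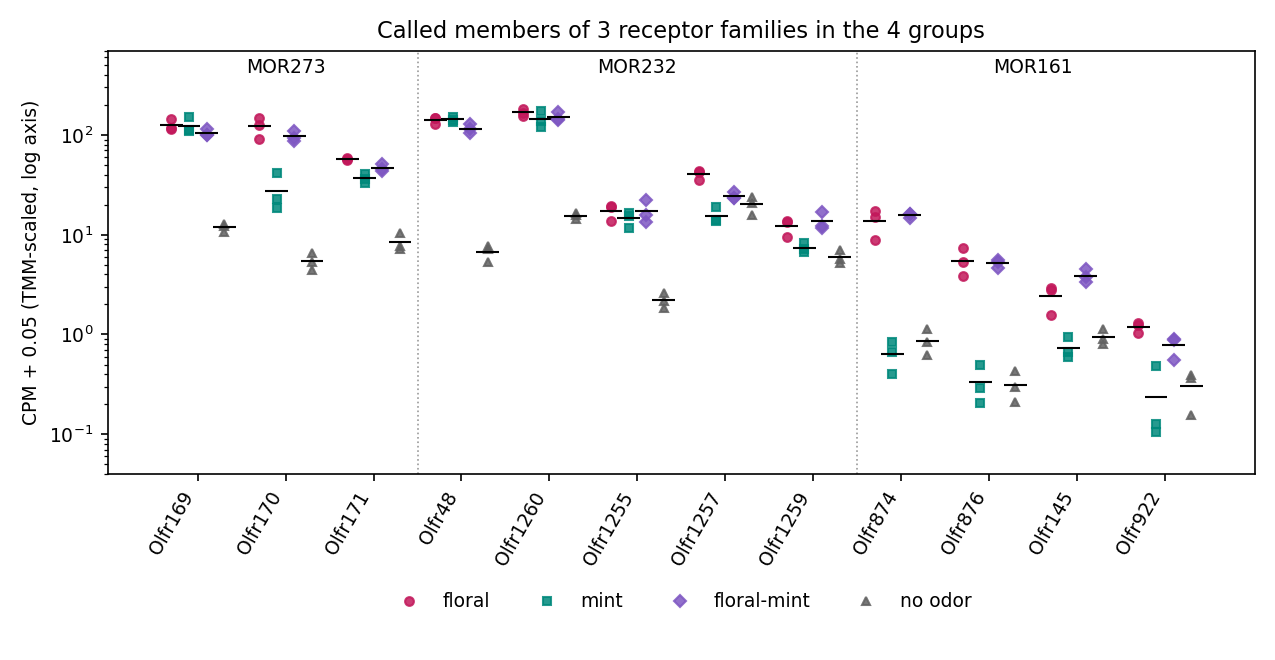
CPM plus 0.05 on a log axis of the called members of MOR273, MOR232 and MOR161, with a point for each library of floral, mint, floral-mint and no odor (left to right) and a bar at the mean of 3. Olfr48, Olfr1260 and Olfr169 are high with both fragrances, whereas mint and no-odor libraries overlap in all 4 MOR161 genes.

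The near-identical MOR273 genes gave different results between the fragrances. Olfr169 did not pass the test, at 144, 115 and 117 CPM with floral and 110, 151 and 111 CPM with mint (log2 difference 0.01 ± 0.13, adjusted p = 0.98). Olfr170 was higher with floral, at 125, 91.9 and 148 CPM against 41.2, 22.8 and 18.6 CPM with mint (2.14 ± 0.24, adjusted p = 0.0002), and Olfr171 by 0.65 ± 0.12 (adjusted p = 0.023). Olfr48 had 129, 148 and 149 CPM with floral and 143, 151 and 136 CPM with mint, a difference of -0.02 ± 0.11 that did not pass the test (adjusted p = 0.97). Olfr1260 differed by 0.23 ± 0.12, which did not pass the test (adjusted p = 0.65).

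Receptors on the other side had much more RNA with mint. Olfr183 (ENSMUSG00000062105) had 10.1, 9.60 and 11.6 CPM with floral, against 193, 263 and 190 CPM with mint, a log2 difference of -4.37 ± 0.14 (adjusted p = 1.52e-10, edgeR). Its floral libraries lay just above the no-odor libraries, at 9.26, 8.38 and 8.37 CPM, and floral against no odor did not pass the test (adjusted p = 0.21). Olfr181, Olfr191 and Olfr187 differed in the same way by -3.98, -3.70 and -3.81. Olfr506 had 0.351, 0.272 and 0.287 CPM with floral and 8.62, 10.1 and 9.15 CPM with mint, against 1.03, 1.31 and 0.877 CPM with no odor, and floral was below mint by -4.92 ± 0.27 and below no odor by -1.81 ± 0.30. The floral values rest on 9, 7 and 7 counts. Olfr1123 was higher with floral than with no odor by 1.71 ± 0.21 and lower than with mint by -2.82 ± 0.19.

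**Figure D4:**
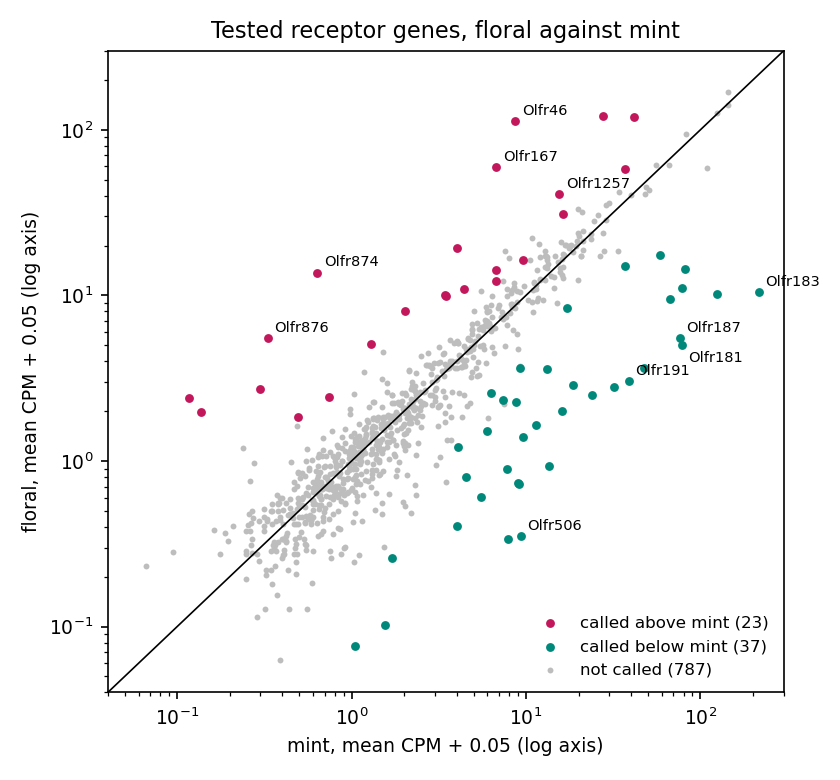
Mean CPM of each tested receptor gene with floral (vertical axis) and with mint (horizontal axis), n = 3 libraries each, on log axes after adding 0.05. The 23 receptors called above mint and the 37 called below it leave the diagonal on both sides, and the labelled genes are those with the smallest p in each direction.

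Between floral and floral-mint 18 receptors were called in the direct test (2.13%), against 23 of 19204 genes in all (0.120%), 1 higher (0.00521%) and 22 lower (0.115%). All 18 were lower with floral. For higher receptors edgeR made 0 calls, with 43 at an unadjusted p under 0.05, and DESeq2 made 3. Olfr183 had 10.1, 9.60 and 11.6 CPM with floral, against 156, 151 and 126 CPM with floral-mint, a log2 difference of -3.79 ± 0.14. Olfr181, Olfr191, Olfr187 and Olfr357 followed with -3.68, -3.35, -2.66 and -3.05. Olfr48 had 129, 148 and 149 CPM with floral and 130, 104 and 114 CPM with floral-mint, a log2 difference of 0.29 ± 0.11 that did not pass the test (adjusted p = 0.52). Olfr874 had 17.2, 15 and 8.78 CPM with floral and 16.2, 14.7 and 16 CPM with floral-mint (-0.19 ± 0.22, adjusted p = 0.83).

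Single odorants and mixtures of them were tested in 2 other sets of 12 libraries with control mice of their own, fitted separately. Of the 82 receptors called higher with floral, 77 were tested with all 6 odors of those sets, mixtures included. Of these, 20 were called higher with none, and the same share over all receptors was not computed. With octanal 41 of 77 were called higher (53.2%, and 22.3% of the 184 called higher with octanal), against 21.4% of all receptors tested in that set. With acetophenone the number was 26 of 78 (33.3%, and 23.6% of its 110), against 12.7%. For cis-3-hexenol it was 18 of 77 (23.4%, and 26.5% of its 68), against 7.92%, and for decanal 11 of 78 (14.1%, and 16.7% of its 66), against 7.60%. With decanal another 6 of the 78 were called lower, and the median log2 change was -0.05 for the 78 and -0.07 for all receptors. The receptors called higher with floral also had higher levels without odor in those sets, with medians of 2.90 and 2.13 CPM, against 1.45 and 1.48 CPM for other receptors, and the part of this in their being called more often was not tested.

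Olfr874 and Olfr876 of MOR161 were higher with acetophenone, by 5.17 and 4.80 log2 units. Olfr169 of MOR273 was called lower with decanal (-1.32, adjusted p = 0.0010, edgeR) and with the acetophenone-decanal mixture (-1.41, adjusted p = 0.00075), and was not called with the other odors. Olfr170 and Olfr171 did not pass the test with any of the 6 odors, at log2 changes of -0.65 to 0.88, nor did Olfr1260, at -0.55 to 0.04. Olfr1110 rose with octanal by 3.11 and with cis-3-hexenol by 4.10, and Olfr46 and Olfr477 rose with octanal by 3.38 and 3.98.

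Outside the receptors, most genes in a list of those known to rise when sensory neurons are active were higher. The list was chosen with earlier results of these data known, so its counts are no independent check. Of 20 tested members 14 were called higher with floral (median log2 change 0.94), beside 8.70% of all genes. Their CPM summed to 5882 to 8760 with floral and 2199 to 3066 with no odor. With mint and floral-mint the sums were 5637 to 6787 and 6625 to 7609 CPM. Across the 14 alternatives 13 to 15 were called higher, and library totals without TMM also gave 1 lower. Heg1, a cell junction gene, had 65.3, 62.1 and 56.4 CPM in floral libraries, against 23.7, 22.9 and 19.7 CPM in no-odor libraries (1.47 ± 0.11, adjusted p = 1.13e-06, edgeR). S100a5, which encodes a calcium-binding protein of sensory neurons, had 3838, 4091 and 6415 CPM with floral and 1769, 2020 and 1357 CPM with no odor (1.48 ± 0.18). Dusp14, a phosphatase, changed by 1.18 ± 0.09, Lrrc3b by 1.91 ± 0.17 and Rasl11a by 1.29 ± 0.12. Scg2 and Bdnf did not pass the test, at -0.07 ± 0.11 and 0.39 ± 0.46.

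Adhesion genes that help axons of like neurons sort together were mixed. Pcdh10 and Kirrel2, adhesion molecules whose levels depend on activity and which are also in the list above, rose most among 21 tested members. Of these members 5 were called higher (median 0.17), beside 8.70% of all genes. There were 3 without no-odor replicate 1, 2 when all 36 libraries were fitted together, and 3 with 1 lower without floral replicate 1 or no-odor replicate 2. Pcdh10 had 43.9, 38.1 and 57.1 CPM in floral libraries, against 5.41, 10.9 and 5.90 CPM in no-odor libraries (2.65 ± 0.25, adjusted p = 1.08e-05, edgeR). Kirrel2 had 488, 490 and 702 CPM with floral, against 218, 226 and 165 CPM with no odor (1.46 ± 0.14). Epha5 and Tenm2 changed by 0.52 and 0.40. Kirrel3, which in sensory neurons is known to be regulated in the opposite way to Kirrel2, did not pass the test (0.33 ± 0.11, adjusted p = 0.052).

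Immediate early genes did not move in a single direction. Among 20 tested members 7 were called higher and 3 lower, beside 8.70% and 5.35% of all genes. The median was -0.01, or 0.07 when the median receptor was held level. Without no-odor replicate 1 there were 4 higher and 2 lower. Maff, a small Maf transcription factor, had 22.2, 20.9 and 25.3 CPM in floral libraries, against 9.22, 9.31 and 9.29 CPM in no-odor libraries (1.30 ± 0.11, adjusted p = 5.31e-06, edgeR). Nr4a1, an orphan nuclear receptor, had 146, 126 and 123 CPM with floral, against 54.5, 24.7 and 61.6 CPM with no odor (1.49 ± 0.24), and Fosb had 10.6, 9.64 and 10.1 CPM with floral, against 3.35, 0.488 and 4.11 CPM with no odor (1.93 ± 0.42). Npas4, a neuronal activity factor, was called higher on few reads, at 35, 28 and 9 counts with floral, against 0, 0 and 5 counts with no odor. Atf3, a stress-induced transcription factor, fell by 0.66 and Egr2 by 1.19. Fos and Egr1 did not pass the test: Fos had 61.1, 43.3 and 46.6 CPM with floral and 53.0, 16.6 and 40.6 CPM with no odor. No-odor replicate 2 was the lowest of the no-odor libraries in Nr4a1, Fosb, Fos and Egr1, and without it 7 members were called higher and 5 lower.

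Part of the transduction machinery was higher. Of 17 tested genes 7 were called higher (median 0.29), beside 8.70% of all genes, and 4 when all 36 libraries were fitted together. Omp, the olfactory marker protein, rose by 0.73 ± 0.05 (adjusted p = 6.49e-07, edgeR). Gng13, a G protein gamma subunit, had 831, 945 and 1044 CPM with floral, against 382, 394 and 331 CPM with no odor (1.35 ± 0.10). Stoml3 and Gfy, membrane proteins of olfactory cilia and the Golgi, rose by 0.75 and 0.76. The core signalling genes Gnal (Golf alpha), Adcy3 and Cnga2 were at 0.27 ± 0.10, 0.29 ± 0.13 and 0.27 ± 0.10 and did not pass the test. In the list of response termination, 4 of 18 tested were called higher (median 0.18), or 2 with all 36 libraries in a single fit, among them Calm2, a calmodulin gene, at 0.65 ± 0.07.

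Presynaptic genes gave 6 higher of 15 tested (median 0.26), beside 8.70% of all genes. Snap25, Cplx2, Rab3a and Syp, which act in vesicle release, rose by 0.57, 0.83, 0.51 and 0.57. Genes of receptor choice and trafficking gave 6 higher and 1 lower of 16, but leaving out any single library gave 2 to 4 higher, the 2 without no-odor replicate 1 and 3 without floral replicate 1 or 2. Library totals without TMM gave 2 higher, and edgeR on all 36 libraries gave 0 calls, with 6 higher and 1 lower at an unadjusted p under 0.05. Atf5, a transcription factor of the receptor feedback signal, had 245, 232 and 287 CPM with floral, against 137, 144 and 172 CPM with no odor (0.75 ± 0.14), and Lhx2, a regulator of receptor genes, rose by 0.26 ± 0.06. The 1 lower call was the lysine demethylase Kdm1a, at -0.31. It was lost in each of the 6 fits without a library, with the replicate block, with the median receptor held level and when all 36 libraries were fitted together.

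**Figure D5:**
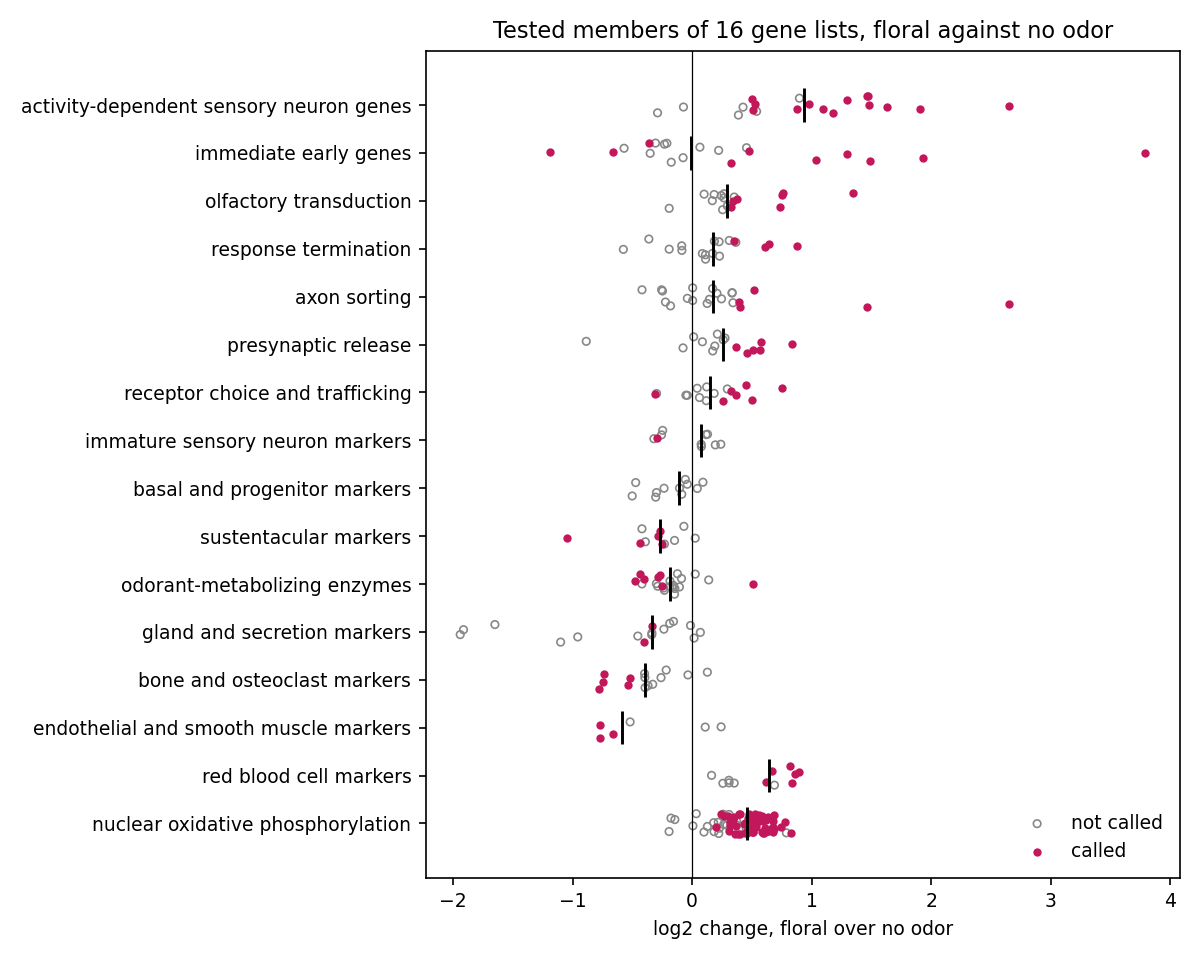
Log2 change of floral over no odor for every tested member of 16 gene lists, with called members filled and a black line at each list's median. The activity-dependent list has the highest median of the 16, 0.94, and bone and smooth muscle markers sit to the left.

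Markers of other cells moved as well, beside the neuronal genes above. The counts of these lists, and of those in the paragraphs that follow, stand against 8.70% of all genes called higher and 5.35% called lower. Mature sensory neuron markers summed to 23679 to 27789 CPM in floral libraries, against 13753 to 16269 CPM in no-odor libraries, with 4 of 10 called higher. With mint and floral-mint they summed to 26501 to 27343 and 25211 to 27046 CPM. The 4 called markers, Omp, Gng13, Stoml3 and S100a5, are genes described above and are no separate result. Omp holds a large part of these sums. Immature neuron markers summed to 6497 to 6572 CPM with floral and 5898 to 6671 CPM with no odor, with 1 of 10 called lower. There were 2 without no-odor replicate 2, and 0 in edgeR without floral replicate 1 or 3 or no-odor replicate 1 or 3, with 2 to 4 lower at an unadjusted p under 0.05. Of the 11 basal and progenitor markers edgeR and DESeq2 called 0, with 2 lower at an unadjusted p under 0.05 in edgeR and 3 in DESeq2. Sustentacular markers, from the supporting cells, summed to 9499 to 10371 CPM with floral and 10641 to 12518 CPM with no odor, with 5 of 11 called lower (median -0.27). There was 1 without floral replicate 3 or without no-odor replicate 1, 2 without floral replicate 1 and 3 without no-odor replicate 2. Cyp1a2, a cytochrome P450, had 433, 407 and 398 CPM with floral, against 601, 558 and 517 CPM with no odor (-0.44 ± 0.08). Odorant-metabolizing enzymes gave 6 lower and 1 higher of 23, and 2 and 1 without no-odor replicate 1, 3 and 1 without no-odor replicate 2 or floral replicate 3. Library totals without TMM gave 8 lower sustentacular markers and 16 lower enzymes. In edgeR on all 36 libraries both lists had 0 calls, with 6 lower in each and 1 enzyme higher at an unadjusted p under 0.05. Cyp2f2, another P450, fell by 0.48. Gland and secretion markers summed to 13254 to 16078 CPM with floral and 12321 to 15651 CPM with no odor, with 2 of 16 called lower, or 5 without floral replicate 2 and 1 without no-odor replicate 1. None of these marker lists was at 0, and their part in the neuronal results was not tested.

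Markers of bone and of smooth muscle were lower too. Bone and osteoclast markers gave 5 lower of 14 (median -0.40), with sums of 5549 to 6826 CPM with floral and 6618 to 9410 CPM with no odor. With mint and floral-mint the bone sums were 4679 to 4856 and 3741 to 6084 CPM. Endothelial and smooth muscle markers gave 3 lower of 6, led by Acta2, smooth muscle actin, with 263, 279 and 311 CPM with floral, against 484, 358 and 612 CPM with no odor. Without floral replicate 3 or no-odor replicate 1 the bone list gave 1 and 2 lower, without no-odor replicate 3 it gave 2, and without floral replicate 1 or 2 it gave 3. The smooth muscle list gave 1 without no-odor replicate 1 or 3. With all 36 libraries in a single edgeR fit both lists gave 0 calls, with 5 and 3 members lower at an unadjusted p under 0.05. Red blood cell markers went the other way, with 6 of 12 called higher and sums of 38485 to 74224 CPM with floral and 30419 to 33039 CPM with no odor. Their sums with mint and floral-mint were 33653 to 47421 and 28338 to 49915 CPM. In edgeR without floral replicate 3, and likewise without no-odor replicate 1, 0 of the 12 were called and 7 were higher at an unadjusted p under 0.05. Hba-a1, a hemoglobin alpha chain, had 19500, 12412 and 25088 CPM with floral, against 9784, 10823 and 9974 CPM with no odor (0.90 ± 0.22, adjusted p = 0.016, edgeR), and the lowest floral value is that of replicate 2.

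Most nuclear genes of mitochondrial respiration were higher. Of 80 tested genes of oxidative phosphorylation 60 were called higher (median 0.46), beside 8.70% of all genes. In sum the list had 19579 to 21701 CPM with floral and 15909 to 16253 CPM with no odor. It had 17594 to 21257 CPM with mint and 18768 to 21019 CPM with floral-mint. Higher sums than with no odor were thus not particular to floral. Ndufv3, a subunit of complex I, had 268, 282 and 299 CPM with floral, against 168, 176 and 162 CPM with no odor (0.75 ± 0.10, adjusted p = 0.0004, edgeR), and Cox5b, of cytochrome c oxidase, rose by 0.78 ± 0.13. The count was 26 without floral replicate 3, 28 without no-odor replicate 1, 38 without TMM and 16 when all 36 libraries were fitted together. Among 11 tested mitochondrial-encoded genes 6 were called higher (median 0.82, also with mt-Nd3 at its bound). There was 1 without floral replicate 3 or no-odor replicate 1, 2 without floral replicate 1 or no-odor replicate 2 and 3 without no-odor replicate 3. mt-Nd3 had 0 counts in all no-odor libraries and was at least 5.52-fold higher with floral against a floor of 3 counts per library. Cytosolic ribosomal protein genes, also short and abundant, gave 3 higher of 80 (median 0.25), or 15 in DESeq2 and 29 when only the 6 libraries compared were fitted. Without floral replicate 1 or 2 edgeR called 2 and 1, and without floral replicate 3 or any no-odor library it called 0, with 7 to 29 higher at an unadjusted p under 0.05.

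Transcript length moved with these changes. Among genes in the quartile with the shortest exon length (up to 2261 bases) the median log2 change was 0.17, with 14.7% called higher and 1.58% lower. In the other quartiles, from shorter to longer, the medians were -0.03, -0.10 and -0.09. Other short protein-coding genes, outside the respiration, ribosomal and mitochondrial lists, had a median of 0.11, and 16.5% of them were called higher. The part of length in the respiration genes was not tested.

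Other genes were also lower with floral. Gne, the enzyme that starts sialic acid synthesis, had 33.1, 34.1 and 33.7 CPM in floral libraries, against 55.9, 52.5 and 52.3 CPM in no-odor libraries (-0.67 ± 0.08, adjusted p = 8.81e-05, edgeR). Of the 9 tested sialic acid genes 2 were called lower and 1, the sialidase Neu1, higher, and without floral replicate 3 there was 1 call. The annexins Anxa6 and Anxa4 fell by 0.60 and 0.48, and the steroid enzyme Hsd17b6 by 0.55. Mmp14 and Tgm2, enzymes that act on the extracellular matrix, fell by 0.53 and 0.60.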

How the data were processed

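The authors deposited expected counts for each gene. In the 6 libraries compared 15.3% to 16.1% of the values were fractional, and all were rounded to whole numbers. The submitters' processing notes name STAR 2.7.10b, Salmon 1.10.1 and R 4.4.2 with the build GRCm39. Which of these steps gave the estimated counts, and on which gene annotation, is not given in the sources used here. Libraries were made with a stranded mRNA kit per the labels' protocols. Of 57010 gene identifiers, 52029 were named from GENCODE vM21, an annotation of GRCm38, so no positions are printed. No 2 libraries were alike within counting noise.

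The 12 libraries of the FM set were fitted together as 4 groups, with R 4.3.3 and edgeR 4.0.16 (filterByExpr with minimum count 10 and minimum total 15, TMM, glmQLFit and glmQLFTest, 2-sided, prior count 0.125). Standard errors were computed from the log2 change and its F statistic. The other 2 sets were fitted alone in the same way. Receptors were the symbols Olfr followed by a number, and class I was taken as MOR families up to 42. On data simulated for floral against no odor, with 18737 genes tested, 26.2%, 73.0% and 92.1% of receptor genes changed 2-, 4- and 8-fold were recovered, with 7 false calls. Far fewer genes were changed in the simulation than were called in the data, so recovery in the data can differ. Coding sequences were aligned with mafft 7.526 and copies found with blastn 2.17.0. Exact permutation was used for the receptor share.

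The members and the gene lists were chosen with earlier results of these data known. Predicted genes and pseudogenes were left out of the naming. Among genes whose libraries did not overlap, those named were the 15 receptors higher and 8 lower with the smallest p. The 5 receptors with the largest change and 8 other genes each way were added. Also named were the 3 receptors with the highest CPM without odor and up to 4 called members of each of 33 lists. Where a list had no call, the 2 with the highest CPM were named. For the fragrance comparisons 5 receptors each way were named. Of the genes named without a call, some had overlapping libraries, as Olfr727 and Taar6 did. Other members of the families and lists were named after their values were seen. Alternatives were DESeq2 1.42.0, other scalings, no filter, other libraries in the fit, a replicate block and leaving out each library.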

Additional observations from a re-analysis of the deposited data

How the results depend on the processing

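In the single fit of all 36 libraries the genes called for floral against no odor numbered 781, against 2698, and the receptors 60, against 97. Leaving out a library gave 967 to 2046 genes and 71 to 95 receptors. The other settings gave 1992 to 3668 genes and 88 to 129 receptors, with library totals without TMM moving the median of all genes to -0.16. With no filter on low counts 112 receptors separated floral from mint, against 60, and 45 separated floral from floral-mint, against 18. Leaving out a library gave 44 to 61 and 16 receptors. The cause of these moves was not tested. Of 1931 alternative values for named genes 1703 stayed on their side of the threshold, 221 lost the call and 7 gained it. In 0 of them was a call reversed to the other direction. The receptor share was 1.26 to 1.37 times higher with floral in every alternative, and with a library left out the smallest exact p is 0.2. Same-numbered floral and no-odor libraries deviated together at correlations of -0.05, 0.10 and 0.11, so the numbers were not taken to pair the mice. With the replicate block 1992 genes and 88 receptors were called for floral against no odor, 54 receptors against mint and 18 against floral-mint. At this depth and with 3 libraries a group, 26.2% of receptors changed 2-fold were recovered in simulation. That simulation changed far fewer genes than the 2698 called here, so recovery in the data can differ.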

Other observations

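Some gene groups belong to none of the comparisons above. Trace amine-associated receptors, a small family of olfactory receptors for amines, were at the edge of detection. Of 14 genes 6 were tested and edgeR and DESeq2 called 0, with 1 lower at an unadjusted p under 0.05 in edgeR and 0 in DESeq2. The list summed to 2.58 to 5.64 CPM in floral libraries, against 5.18 to 6.84 CPM in no-odor libraries. Taar6, its gene with the highest CPM, had 0.779, 1.32 and 0.656 CPM with floral, against 1.42, 1.20 and 1.24 CPM with no odor (log2 change -0.48 ± 0.38, adjusted p = 0.42, edgeR). Pseudogenes of odorant receptors with -ps in their names, kept apart from the receptor counts, gave 3 higher of 44 tested, beside 8.70% of all genes and 9.68% of receptors called higher. Of the 1107 receptor genes in the files, 14 are pseudogenes by biotype and stayed among the receptors.

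Motile cilia markers, from respiratory cells, gave 3 higher of 20, with sums of 1062 to 1142 CPM with floral and 944 to 998 CPM with no odor, and 1 without floral replicate 3 or no-odor replicate 1. Cfap126 rose by 0.52 ± 0.11. Pou2f3, the transcription factor of tuft cells, was the single called gene of 8 microvillar and tuft markers. It had 9.39, 8.36 and 8.98 CPM with floral, against 4.88, 5.30 and 6.54 CPM with no odor (0.68 ± 0.14, adjusted p = 0.0063, edgeR). Car2, a carbonic anhydrase, was the called one of 11 genes of non-canonical sensory neurons (0.32 ± 0.10), and 5 of the 6 fits that left out a library lost it. Csf1r, the receptor that maintains macrophages, fell by 0.59, as the called one of 8 macrophage markers, and the glial transcription factor Sox10 fell by 0.36 as the called one of 9 glia markers, a call that 5 of the 6 fits without a library lost. Fibroblast and matrix genes gave 2 lower of 10. Heat shock chaperones gave 2 higher and 1 lower of 13, which leaving out a library reduced to 0 or 1 calls in all. Interferon-stimulated genes gave 0 calls of 12 in edgeR, with 1 higher and 4 lower at an unadjusted p under 0.05, and 1 lower in DESeq2. Of neutrophil, lymphocyte and skeletal muscle markers, edgeR and DESeq2 called 0 of 11, 7 and 3 tested, also at an unadjusted p under 0.05.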
